A study of Arabidopsis thaliana with 13 samples.

Results

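The enzymes that make and break down abscisic acid were followed through dry and single seeds of Arabidopsis thaliana. The 10 genes, taken by locus identifier, were CYP707A1 to CYP707A4, which encode the cytochrome P450 hydroxylases that start the breakdown of the hormone, and NCED5, NCED6, NCED9, ABA1, ABA2 and AAO3, which encode enzymes of its synthesis. All 10 were present among 37184 genes counted in dry seeds and 37336 genes counted in single seeds.

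All seeds were wild-type Col-0. The single seeds, put into secondary dormancy induction, were after-ripened, that is, stored dry until primary dormancy had faded. The study's methods state such storage for seeds of that treatment and do not state it for the dry-seed libraries. Dry seeds from 4 seed pools had been sorted by a robot into small, medium and large seeds, which gave 4 libraries of each size. Single seeds were small or large and were sampled at 2 stages: after 7 days of secondary dormancy induction in warmth and darkness followed by 24 h of light (7d+24h), or after 3 days of induction with no recovery (3d). Each of these 4 groups held 96 seeds in 3 libraries of 32, and comparisons were made over libraries. The stages differ in induction time, light and temperature together, so these cannot be told apart. The 3 libraries of a group came from 1 sorted seed pool, so p-values for single seeds measure only the spread between libraries, which may be technical.

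Abscisic acid keeps seeds dormant, and its level is set by synthesis from carotenoids and by breakdown. ABA1 is the zeaxanthin epoxidase near the start of the pathway, the NCED dioxygenases cleave the epoxycarotenoids to xanthoxin, ABA2 turns xanthoxin into abscisic aldehyde, and AAO3 oxidises the aldehyde to abscisic acid. NCED6 and NCED9 are known as the main seed forms, with NCED6 active in endosperm. Of the hydroxylases, CYP707A2 is known for the drop in abscisic acid at imbibition and CYP707A1 for its breakdown during seed maturation.

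Gene positions were read from the RefSeq annotation of TAIR10.1. CYP707A2 (AT2G29090) spans 12494826 to 12499723 on the minus strand of chromosome 2 and has 5 to 9 exons in its 4 annotated transcripts. CYP707A1 (AT4G19230) spans 10521259 to 10523961 on the plus strand of chromosome 4 with 7 exons, and ABA1 (AT5G67030) spans 26753469 to 26757402 on the minus strand of chromosome 5 with 16 exons. NCED5 (AT1G30100), NCED6 (AT3G24220) and NCED9 (AT1G78390) have a single exon each. ABA2 (AT1G52340) overlaps 2 genes on the opposite strand and AAO3 (AT2G27150) overlaps 1. Whether counting used strand is not given in the sources used here, so counts of ABA2 and AAO3 may include reads of these partners.

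The 250 bases before the annotated start are shown for 4 genes on which the results turn, CYP707A2, CYP707A1, NCED9 and ABA1. Sequences are from RefSeq (TAIR10.1) and run 5′ to 3′ on the strand of the gene. Capitals mark matches on either strand to ACGTG, the core of the abscisic acid response element, or to CATGCA, the RY element of seed genes. The windows are chr2:12499724-12499973 (minus strand), chr4:10521009-10521258 (plus strand), chr1:29492876-29493125 (minus strand) and chr5:26757403-26757652 (minus strand), in the order of the genes.
CYP707A2: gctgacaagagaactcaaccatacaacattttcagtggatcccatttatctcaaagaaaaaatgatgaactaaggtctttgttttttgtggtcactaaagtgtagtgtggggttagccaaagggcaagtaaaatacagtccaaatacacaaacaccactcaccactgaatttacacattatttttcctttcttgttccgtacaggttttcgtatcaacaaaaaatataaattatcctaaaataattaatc
CYP707A1: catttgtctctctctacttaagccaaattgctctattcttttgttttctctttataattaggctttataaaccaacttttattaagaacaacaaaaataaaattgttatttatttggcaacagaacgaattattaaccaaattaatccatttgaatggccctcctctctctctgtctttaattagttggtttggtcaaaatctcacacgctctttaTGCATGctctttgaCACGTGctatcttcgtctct
NCED9: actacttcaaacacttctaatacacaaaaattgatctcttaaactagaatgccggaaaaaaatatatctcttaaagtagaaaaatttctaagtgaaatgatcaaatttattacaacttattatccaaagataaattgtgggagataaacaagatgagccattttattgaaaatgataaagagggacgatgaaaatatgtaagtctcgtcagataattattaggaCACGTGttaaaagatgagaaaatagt
ABA1: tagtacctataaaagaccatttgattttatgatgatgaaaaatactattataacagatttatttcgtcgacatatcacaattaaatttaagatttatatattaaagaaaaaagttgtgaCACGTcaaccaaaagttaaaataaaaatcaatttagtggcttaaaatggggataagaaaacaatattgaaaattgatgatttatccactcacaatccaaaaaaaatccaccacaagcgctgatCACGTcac
CYP707A2 held neither motif in this window. CYP707A1 and NCED9 each held ACGTG on both strands in overlapping matches, and ABA1 held 2 separate matches. Over all 10 genes, 5 held ACGTG (CYP707A1, CYP707A3, CYP707A4, NCED9 and ABA1), which 22.9% of 27443 protein-coding genes held in windows of this length. CYP707A1 and CYP707A3 held CATGCA, found in 8.43% of those windows.

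Depth limited what most of the genes could show. Dry libraries held 554305 to 2079317 counts and single-seed libraries 2326352 to 5851052. In dry seeds ABA1 had 3156 counts over the 12 libraries and CYP707A2 had 547, while the other detected genes had 12 (CYP707A3) to 117 (AAO3). CYP707A4 had 0 of 13984465 counts, which allows up to 0.215 CPM (counts scaled to a common library total), for counting error only. In single seeds ABA1 had 3494 counts, CYP707A2 950 and NCED9 675, and the others had 15 (CYP707A4) to 397 (AAO3). Levels are given as CPM scaled by TMM, which assumes that most genes do not change, and as mean ± SD over n libraries. Changes are log2 fold changes ± SE from edgeR's quasi-likelihood test, called at a Benjamini-Hochberg adjusted p below 0.05 over all genes fitted. The usual filters left only CYP707A2 and ABA1 in dry seeds (8234 genes) and only CYP707A2 and AAO3 in single seeds (6754 genes). In single seeds ABA1 and NCED9 had means of 9.10 and 1.76 counts a seed, above the minimum of 1. They were dropped because their shares followed that of intergenic reads, with correlations of up to 0.600 and 0.443 (limit 0.3). The study removed such genes because their reads may not show expression accurately. All other values come from wider fits of 22778 and 17652 genes, each with 9 of the 10 genes and without CYP707A4. Where libraries are said not to overlap, the share of all genes without overlap was not counted.

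In dry seeds, CYP707A2 was lower in small seeds than in medium or large seeds. No other gene of the 10 was called between sizes. CYP707A2 had 27.4, 22.6, 14.2 and 29.5 CPM in small seeds (pools 1 to 4), 37.7, 30.9, 39.4 and 57.7 CPM in medium ones and 52.1, 54.1, 37.6 and 54.1 CPM in large ones. Every small library lay below every medium and large library, while medium and large libraries overlapped. Means were 23.4 ± 6.82 CPM in small seeds, with 41.4 ± 11.5 CPM in medium and 49.5 ± 7.99 CPM in large ones (SD, n = 4 each). In bulk seeds, fewer cells of a type and less RNA per cell cannot be told apart.

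The small over large change of CYP707A2 was -1.19 ± 0.24 (95% interval -1.67 to -0.70, adjusted p = 0.000438, edgeR), and 14.7% of the 8234 genes were called in this comparison. It was lower in small seeds in 4 of 4 pools, with ratios of 0.527, 0.418, 0.377 and 0.546. The call held without each library in turn, with values between -1.33 and -0.87. On library totals without TMM the change was -1.57 (adjusted p = 7.04e-06), beside a median of -0.40 over all genes.

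The small over medium change was -0.93 ± 0.25 (adjusted p = 0.0237, edgeR), lower in 4 of 4 pools, with 3.51% of genes called. This call was lost without small pool 3 (-0.61, adjusted p = 0.292) and without medium pool 4 (-0.72, adjusted p = 0.174). With DESeq2 its adjusted p was 0.0424 with the usual filter, and it was not called in the wider set. With libraries thinned to the shallowest the call was lost (-0.77, adjusted p = 0.163). Between medium and large seeds the change was -0.25 ± 0.20 (95% interval -0.65 to 0.15, adjusted p = 0.8801), where 0.146% of genes were called, or 24 genes in place of 12 with seed pool as a block.

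**Figure D1:**
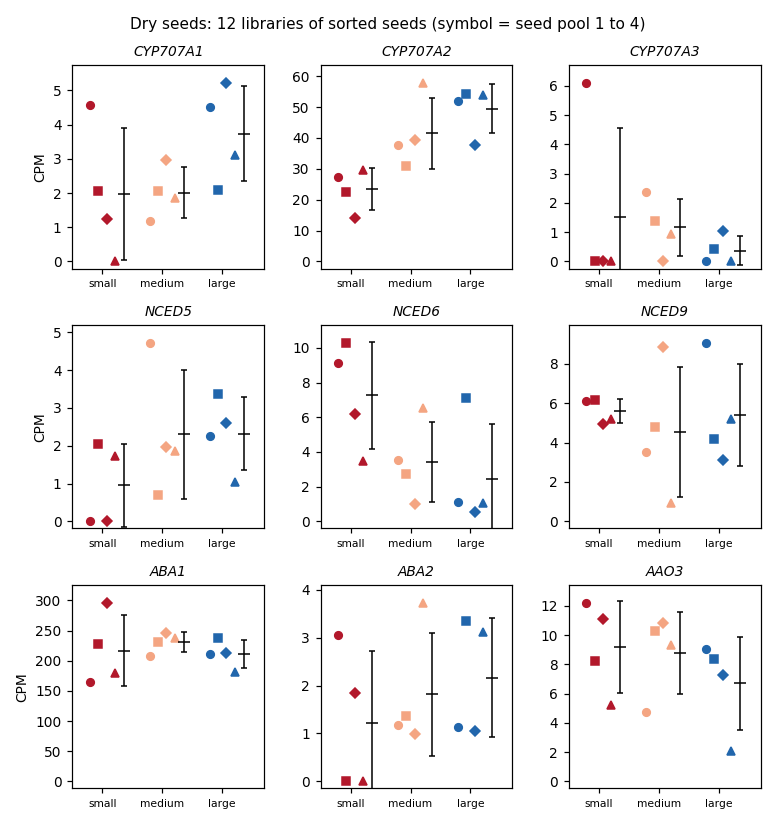
Level of the genes in dry seeds in TMM-scaled CPM (vertical axes, a scale for each gene) for small, medium and large seeds. Each symbol is 1 library and its shape marks the seed pool, with mean and SD (n = 4). For CYP707A2 the small libraries reach 29.5 CPM at most and all others lie above.

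CYP707A2 made up 72.0% to 100% of the summed CYP707A level in each dry library. CYP707A1 had 3, 1, 2 and 0 counts in small, 1, 3, 3 and 2 in medium and 4, 5, 10 and 3 in large seeds, with overlapping groups. Its small over large change was -0.96 ± 0.74 (95% interval -2.41 to 0.50), an interval that holds both no change and a change as large as that of CYP707A2. CYP707A3 had 4, 0, 0 and 0 counts in small, 2, 2, 0 and 1 in medium and 0, 1, 2 and 0 in large seeds, and no difference was detectable at this depth. In these wider fits 4.78% of genes were called between small and large, 1.26% between small and medium and 0.136% between medium and large seeds, and of the 9 genes 1, 1 and 0 were called. Between medium and large seeds none of the 9 reached an unadjusted p of 0.05, and DESeq2 called 0.

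ABA1 showed no detectable difference between sizes. Its interval was narrow, but it covers only the spread between libraries under TMM scaling. It had 165, 228, 296 and 179 CPM in small seeds, with 209, 230.5, 247 and 238 CPM in medium and 212, 237, 213 and 181 CPM in large ones. Small seeds held both the lowest library (pool 1) and the highest (pool 3), and the groups overlapped. The small over large change was 0.065 ± 0.14 (95% interval -0.22 to 0.35, adjusted p = 0.824, edgeR). On library totals it was -0.32 (adjusted p = 0.0747), outside that interval, beside a median of -0.40 over all genes.

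NCED6 had its highest dry levels in small seeds, with a value that depended on 1 large library. It had 9.14, 10.3, 6.16 and 3.47 CPM in small seeds, with 3.54, 2.74, 0.986 and 6.52 CPM in medium and 1.13, 7.13, 0.522 and 1.04 CPM in large ones. The large libraries held 1, 17, 1 and 1 counts, and pool 2 among them overlapped the small libraries. The small over large change was 1.16 ± 0.54 (adjusted p = 0.273, edgeR), higher in small seeds in 4 of 4 pools. Without large pool 2 it was 2.95 (adjusted p = 0.0113), which would be called.

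The remaining synthesis genes were not called in dry seeds. NCED9 had 5.601 ± 0.624 CPM in small seeds, with 4.54 ± 3.31 CPM in medium and 5.39 ± 2.58 CPM in large ones (SD, n = 4 each), with a small over large change of 0.15 ± 0.52. AAO3 had 9.18 ± 3.13 CPM in small seeds, with 8.79 ± 2.79 CPM in medium and 6.71 ± 3.17 CPM in large ones, with a change of 0.46 ± 0.41. NCED5 had 2 counts in small, 9 in medium and 16 in large seeds in all (small over large -1.85 ± 1.01, 95% interval -3.82 to 0.13). ABA2 had 5, 8 and 14 counts in small, medium and large seeds (-0.58 ± 0.85, 95% interval -2.25 to 1.1), so neither could show a change of moderate size.

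The summed CYP707A level over the summed level of NCED5, NCED6 and NCED9 was 2.5, 1.33, 1.39 and 2.83 in the small libraries, 3.5, 4.17, 3.58 and 6.5 in the medium libraries and 4.55, 3.86, 7 and 7.86 in the large libraries (pools 1 to 4). All small libraries lay below all others, and medium and large libraries overlapped. The CYP707A sum is dominated by CYP707A2, with means of 26.9, 44.6 and 53.6 CPM in small, medium and large seeds. The NCED sum had means of 13.8 ± 3.78, 10.3 ± 1.81 and 10.2 ± 4.05 CPM (SD, n = 4 each). The ratio thus repeats the CYP707A2 difference in part, and it was not tested.

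Of 37 further genes of abscisic acid metabolism, transport and control in 5 lists, 35 were fitted in dry seeds and 2 were called between small and large, beside the 4.78% of all 22778 genes given above. Calls of 2 among 35 genes are near that share. AAO1, an aldehyde oxidase related to AAO3, was lower in small seeds: it had 866, 814, 759 and 829 CPM in small seeds, with 1191, 998, 1376 and 1075 CPM in medium and 1247, 1285, 1258 and 1202 CPM in large ones. Its change was -0.63 ± 0.13 against large (adjusted p = 9.26e-05, edgeR) and -0.52 ± 0.13 against medium seeds. ABCG31, a transporter that exports abscisic acid from endosperm, was higher in small seeds: it had 24.4, 10.3, 30.8 and 22.6 CPM in small seeds, with 3.54, 8.92, 5.92 and 1.86 CPM in medium and 4.53, 1.68, 4.17 and 1.04 CPM in large ones. Its change was 3.05 ± 0.40 against large (adjusted p = 7.28e-12) and 2.12 ± 0.37 against medium seeds. For both genes small libraries overlapped neither other size, and the sign was the same on library totals (-0.98 and 2.66 against large). With TMM, none of 12 carotenoid genes, 4 conjugation and release genes or 6 transcription factor genes was called, nor were NCED2 (-1.92 small over large), NCED3 (0.41), ABA3 (0.52) and ABA4 (-1.68), with adjusted p from 0.372 to 0.919. On library totals, where 11.4% of all genes were called, 1 carotenoid gene (BCH1, -0.63), 2 transcription factor genes (ATAF1, -0.53, and NLP8, -0.50) and AAO2 (-1.91) were called lower in small seeds as well.

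Marker sums of the dry libraries, in CPM of library totals, are given beside these differences. Endosperm markers (EPR1, EXPA2 and MAN7) summed to 25058 to 39606 in small, 26631 to 42427 in medium and 32326 to 35423 in large libraries. EPR1 alone made up 39604 of the 39606 in small pool 1, so this sum says little of EXPA2 and MAN7. None of the 3 was called between small and large seeds. Seed storage markers (SESA1, CRA1 and OLEO1) summed to 50750.3 to 71859 in small, 37429.8 to 53604 in medium and 37058 to 42925 in large libraries, so small and large libraries did not overlap. Seedling markers (CAB1 and RBCS1A) summed to 27.5 to 41.9 in small, 20.6 to 62.8 in medium and 20.7 to 31.7 in large libraries. In the wider fit both were called higher in small than in large seeds with TMM and 1, CAB1, on library totals. With the usual filter only 1 of the 2 was fitted, and it was not called (0.72 small over large). CAB1 had 6, 2, 9 and 2 counts in small, 3, 4, 4 and 1 in medium and 0, 3, 1 and 0 in large libraries. The part of these markers in the differences of CYP707A2, AAO1 and ABCG31 was not tested.

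In single seeds, 4 of the 10 genes fell between the stages at both sizes on both scalings used: CYP707A1, CYP707A2, NCED9 and ABA1 were lower at 7d+24h than at 3d. The share of all genes called lower in all these cases was not counted. The shares of NCED9, ABA1 and NCED6 followed intergenic reads above the usual filter's limit of 0.3 (correlations up to 0.443, 0.600 and 0.312). The part of those reads in these falls was not tested. For ABA1 in small seeds the fall was not seen in mean counts of seeds thinned to 1 depth, given below. NCED6 fell on both scalings in small seeds. In the wider fit 6 of 9 genes were called lower in small seeds, beside 26.0% of all genes, and 5 of 9 in large seeds, beside 28.2%. None was called higher, beside 30.6% and 33.7% of all genes. Without TMM, on library totals, the median change of all genes was 0.73 in small and 0.67 in large seeds, against 0.08 in each with TMM, so both values are given below. On library totals 5 genes in small and 4 in large seeds were called lower, beside 9.38% and 13.0% of all genes.

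NCED9 had 8.43, 7.74 and 7.46 CPM at 7d+24h in small seeds, against 27.4, 30.8 and 36.2 CPM at 3d. In large seeds it had 6.302, 7.36 and 7.55 CPM at 7d+24h, against 33.7, 37.8 and 29.4 CPM at 3d. The stages did not overlap at either size. The change was -1.99 ± 0.17 in small and -2.24 ± 0.16 in large seeds (adjusted p = 8.05e-08 and 1.4e-08, edgeR), and -1.34 and -1.64 on library totals.

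NCED6 had 0.169, 0.948 and 0.392 CPM at 7d+24h in small seeds, against 7.72, 11.5 and 16.6 CPM at 3d. In large seeds it had 0.955, 1.66 and 1.12 CPM at 7d+24h, against 2.63, 2.697 and 8.22 CPM at 3d. The stages did not overlap, but the 7d+24h values rest on 1 to 9 counts a library. The change was -4.44 ± 0.56 in small and -1.87 ± 0.55 in large seeds (adjusted p = 6.83e-06 and 0.00804, edgeR). On library totals it was -3.82 (adjusted p = 6.3e-05) in small and -1.29 (adjusted p = 0.0663) in large seeds, and without large 3d library 3 the change in large seeds was -1.13 (adjusted p = 0.125). With seeds thinned to 20000 counts it was -1.27 in large seeds (adjusted p = 0.372).

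ABA1 had 68.99, 46.9 and 63.8 CPM at 7d+24h in small seeds, against 127, 128 and 110.01 CPM at 3d. In large seeds it had 50.8, 42.5 and 39.1 CPM at 7d+24h, against 155, 139 and 139 CPM at 3d. The stages did not overlap at either size. The change was -1.03 ± 0.15 in small and -1.71 ± 0.15 in large seeds (adjusted p = 2.68e-05 and 9.83e-08, edgeR). On library totals it was -0.37 (adjusted p = 0.0278) and -1.11 (adjusted p = 4.94e-06). With seeds thinned to 20000 counts the call in small seeds was lost (-0.45 with TMM, adjusted p = 0.107). The mean of the thinned counts in small seeds was 1.82 a seed at 7d+24h, above the 1.63 at 3d. In large seeds it was 1.25 at 7d+24h, against 2.48 at 3d.

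CYP707A2, the hydroxylase that differed in dry seeds, had 14, 16.4 and 14.3 CPM at 7d+24h in small seeds, against 32.6, 34.9 and 37.2 CPM at 3d. In large seeds it had 9.74, 13.1 and 15.6 CPM at 7d+24h, against 32.1, 35.1 and 43.2 CPM at 3d. The stages did not overlap. With the usual filter the change was -1.60 ± 0.17 in small and -2.03 ± 0.17 in large seeds (adjusted p = 6.19e-07 and 3.25e-08, edgeR), where 32.4% and 35.9% of genes were called lower. On library totals it was -0.57 (adjusted p = 0.0171) and -0.92 (adjusted p = 0.000618).

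CYP707A1 had 2.87, 3.32 and 5.69 CPM at 7d+24h in small seeds, against 9.44, 14.6 and 24.1 CPM at 3d. In large seeds it had 5.35, 4.05 and 5.31 CPM at 7d+24h, against 13.7, 18.4 and 19.5 CPM at 3d. The stages did not overlap. The change was -2.02 ± 0.33 in small and -1.81 ± 0.32 in large seeds (adjusted p = 9.94e-05 and 0.000135, edgeR), and -1.38 and -1.22 on library totals, called in each case.

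AAO3, the last step of synthesis, was called lower with TMM scaling and not on library totals. It had 6.41, 5.69 and 10.2 CPM at 7d+24h in small seeds, against 10.3, 11.99 and 16.1 CPM at 3d, and 6.302, 7.54 and 7.41 CPM at 7d+24h in large seeds, against 8.95, 9.89 and 11.2 CPM at 3d. These TMM-scaled values did not overlap between stages at either size. With the usual filter the change was -1.17 ± 0.26 in small and -1.02 ± 0.28 in large seeds (adjusted p = 0.00109 and 0.00352, edgeR). On library totals it was -0.14 and 0.088 (adjusted p = 0.655 and 0.789), and in the wider fit the call in large seeds was lost (-0.50, adjusted p = 0.10996). It was lost there too with no filter on intergenic reads (-0.53, adjusted p = 0.0891). With seeds thinned to 20000 counts it was lost at both sizes, with -0.89 in small and -1.20 in large seeds (adjusted p = 0.193 and 0.0794).

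CYP707A3, NCED5 and ABA2 were not called between stages. CYP707A3 had 4.39, 7.901 and 6.67 CPM at 7d+24h in small seeds, against 4.72, 14.6 and 17.1 CPM at 3d, a change of -0.91 ± 0.38 (adjusted p = 0.0551, edgeR), and of -0.56 ± 0.38 in large seeds. It was called in small seeds without 3d library 1 (-1.30) or without 7d+24h library 2 (-1.11). NCED5 had changes of -0.94 ± 0.75 in small and -0.58 ± 0.74 in large seeds, and its value in small seeds was -2.06 (adjusted p = 0.0338) without 7d+24h library 3. ABA2 gave -0.79 ± 0.38 in small seeds, or -1.07 (adjusted p = 0.0275) without 3d library 3, and -0.53 ± 0.35 in large seeds. CYP707A4 had 15 counts in all 384 seeds.

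**Figure D2:**
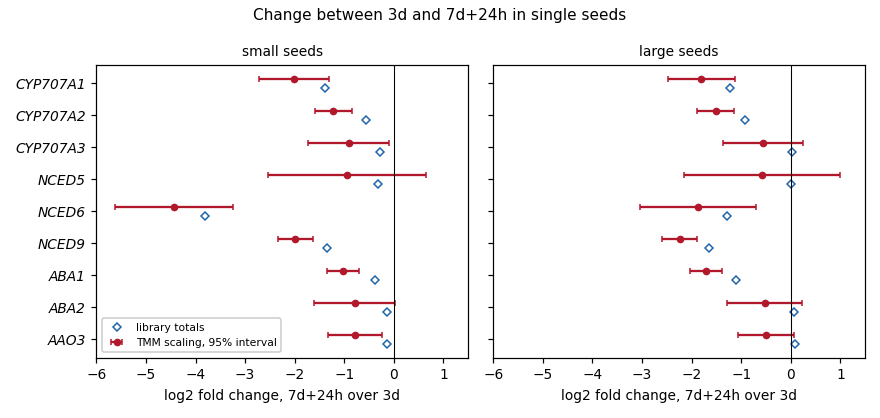
Log2 fold change of 7d+24h over 3d in small and in large seeds for 9 genes in the wider fit. Points with bars are TMM-scaled estimates with 95% intervals and open diamonds are estimates on library totals, which lie higher for each gene.

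The summed CYP707A level over the summed NCED level needs no scaling between libraries. It was 2.26 ± 0.433 in small and 2.13 ± 0.197 in large seeds at 7d+24h, against 1.31 ± 0.124 in small and 1.502 ± 0.2498 in large seeds at 3d (SD, n = 3 each). The lowest 7d+24h library had 1.86 and the highest 3d library 1.79, so the stages did not overlap.

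The RNA of the seeds differed between stages in other ways too. Seed storage markers summed to 6688 to 10941 CPM of library totals in small and 6002 to 7152 CPM in large libraries at 7d+24h, against 77573 to 79339 CPM in small and 76995 to 78792 CPM in large libraries at 3d. Seedling markers summed to 166 to 295 CPM in small and 272 to 302 CPM in large libraries at 7d+24h, against 24.5 to 31.4 CPM in small and 13.8 to 19.2 CPM in large libraries at 3d. Endosperm markers summed to 369 to 772 CPM in small and 660.2 to 965 CPM in large libraries at 7d+24h, against 136 to 268 CPM in small and 81.95 to 114 CPM in large libraries at 3d. Of these 3 markers, 2 were called higher and 1 lower at each size, with TMM and on library totals, so the sum hides a marker that fell. Their part in the falls of NCED9, NCED6, ABA1, CYP707A1 and CYP707A2 was not tested. Small 7d+24h library 3 held 14.0% intergenic reads, against 8.75% to 11.2% in the other 7d+24h libraries, and without it these 5 genes were still called in small seeds.

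Between small and large single seeds, none of the 9 genes was called at 3d, at 7d+24h or in the size by time interaction, where 0.312%, 1.96% and 0.283% of all genes were called (edgeR). DESeq2 called 0 as well. At an unadjusted p of 0.05, NCED6 passed at 3d, ABA1 at 7d+24h, and both in the interaction. CYP707A2 had a small over large change of -0.12 ± 0.17 at 3d (95% interval -0.47 to 0.24) and of 0.31 ± 0.17 at 7d+24h (95% interval -0.041 to 0.66), and its libraries overlapped at both stages. Dry and single seeds are separate tables, and the difference between their size effects was not tested.

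NCED6 had the widest gap between sizes at 3d, with the values given for the stages. Small 3d libraries overlapped the large ones only through small library 1 and large library 3. The small over large change was 1.36 ± 0.48 at 3d (adjusted p = 0.374, edgeR) and -1.21 ± 0.67 at 7d+24h, and the interaction was -2.57 ± 0.82 (adjusted p = 0.261). ABA1 had changes of -0.24 ± 0.15 at 3d and 0.44 ± 0.15 at 7d+24h (adjusted p = 0.1302), with an interaction of 0.68 ± 0.21 (adjusted p = 0.247). Without small 7d+24h library 2, which lay within the large range, the change of ABA1 at 7d+24h was 0.59 (adjusted p = 0.0251). The share of ABA1 in a seed's counts followed the intergenic share with a correlation of up to 0.600 within a group. For NCED9 it was up to 0.443 and for NCED6 up to 0.312, and the usual filter dropped genes above 0.3. The part of intergenic reads in these values was not tested.

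The other 6 genes had changes between sizes of -0.29 (ABA2) to 0.34 (AAO3) at 3d and of -0.55 (ABA2) to 0.15 (NCED9) at 7d+24h in the wider fit, and the lowest adjusted p among them was 0.406. NCED5 spread widely between libraries of a group. It had 0.858, 3.13 and 14.1 CPM in the small 3d libraries, with a count in 2, 6 and 16 of 32 seeds, and 2.11, 7.64 and 5.62 CPM in the large 3d libraries.

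Seeds were compared at 1 depth by drawing 20000 counts from each of the 378 seeds that held them. NCED6 then had a count in 2.11% (0.256% to 7.399%) of small and 2.08% (0.253% to 7.32%) of large seeds at 7d+24h, and in 22.1% (14.2% to 31.8%) of small and 5.43% (1.79% to 12.2%) of large seeds at 3d (exact Clopper-Pearson 95% intervals, counting error only). Without thinning it had a count in 8 of 96 small and 17 of 96 large seeds at 7d+24h, and in 46 of 96 small and 21 of 96 large seeds at 3d. NCED9 was found in 30.5% of small and 14.6% of large thinned seeds at 7d+24h, and in 41.1% and 42.4% at 3d. ABA1 was found in 74.7% of small and 65.6% of large seeds at 7d+24h, and in 76.8% and 90.2% at 3d. CYP707A2 was found in 28.4% of small and 21.9% of large seeds at 7d+24h, and in 43.2% and 39.1% at 3d.

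Spread between seeds was measured as the variance of the thinned counts over their mean, which is 1 for random counting. It was 0.986, 1.4, 1.21 and 1.01 for CYP707A2 and 1.38, 1.33, 1.33 and 0.909 for ABA1 in small 7d+24h, large 7d+24h, small 3d and large 3d seeds. It was 1.65 for NCED6 and 1.49 for NCED9 in large 7d+24h seeds. The value of NCED6 rests on 2 of 96 seeds with a count, with at most 2 counts in a seed. In small 7d+24h, small 3d and large 3d seeds it was 0.989, 0.787 and 0.956 for NCED6 and 0.811, 0.898 and 0.905 for NCED9. The highest value was 1.82, for CYP707A1 in small 3d seeds, where 41.9% of thinned seeds of library 3 had a count, against 12.5% in library 1 and 9.38% in library 2.

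**Figure D3:**
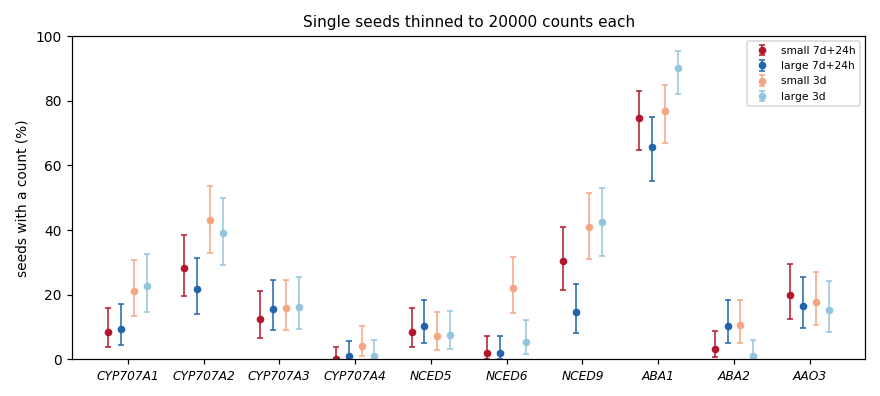
Share of seeds with at least 1 count of each gene (percent of seeds) after thinning to 20000 counts a seed, for small and large seeds at 7d+24h and 3d. Bars are exact 95% binomial intervals, for counting error only. ABA1 was found in 65.6% to 90.2% of seeds and NCED6 in 2.08% to 22.1%.

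The split of other pathway genes between higher and lower depended on the scaling in the wider fit. Of 12 carotenoid genes, 3 were called higher and 3 lower in small seeds, and 4 higher and 4 lower in large seeds with TMM. On library totals these counts were 7 higher and 1 lower in small seeds, and 6 higher and 1 lower in large seeds. Of all genes, the shares called higher and lower with TMM and lower on library totals are given above, and 54.5% in small and 52.4% in large seeds were called higher on library totals. LUT5, a carotene hydroxylase, was higher at 7d+24h (2.47 ± 0.28 in small and 2.43 ± 0.26 in large seeds), and so was PSY, the phytoene synthase at the entry to carotenoids (0.87 ± 0.27 and 1.63 ± 0.23). BCH2, another carotene hydroxylase, was lower (-1.23 ± 0.20 in small and -2.47 ± 0.20 in large seeds, and -0.57 and -1.87 on library totals). Of 5 other synthesis genes fitted, AAO2, an aldehyde oxidase, was higher (1.90 ± 0.31 and 2.77 ± 0.33), and AAO1 was lower with TMM (-0.43 and -0.73) but had 0.22 and -0.13 on library totals, with no call. ABA3 had -0.38 and -0.23 and ABA4 0.51 and 0.60, not called with TMM, although ABA4 was called on library totals (1.15 and 1.18), and NCED2 and NCED3 were too low to be fitted. Of 3 transport genes fitted, 1 in small and 2 in large seeds were called higher, among them the exporter ABCG25 (2.77 ± 0.39 and 4.15 ± 0.43). On library totals 2 transport genes were called higher at each size.

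Of 6 transcription factor genes, 2 were called higher and 2 lower at each size with TMM, and 4 higher and 1 lower on library totals. ABI4 had 1.53 in small and 1.87 in large seeds and SPT had 2.86 and 2.72. MYB96 had -2.06 and -1.88, and ATAF1 had -1.05 and -0.69 but was not called on library totals. Of 4 conjugation and release genes, 1 was called higher and 2 lower in small seeds, and 1 higher and 1 lower in large seeds with TMM. On library totals 1 was called higher in small and 2 in large seeds, and none lower. The gene called higher with TMM, and with 1 other gene (UGT71B7, 0.46 in large seeds) on library totals, was UGT71B8, a glucosyltransferase gene beside close copies that could share its reads, with 41, 55 and 55 counts in small and 50, 50 and 73 counts in large libraries at 7d+24h, against 0, 0 and 0 in small and 0, 3 and 0 in large libraries at 3d.

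Between sizes, 1 of the 30 further genes fitted in single seeds was called, at 7d+24h, beside 1.96% of all 17652 genes. A single call among 30 genes is near that share. PSY had 14.7, 16.1 and 18.8 CPM in small and 30.7, 42.3 and 43.2 CPM in large seeds at 7d+24h, with no overlap and a small over large change of -1.23 ± 0.19 (adjusted p = 0.0112, edgeR). None of the 30 was called at 3d or in the interaction, where 0.312% and 0.283% of all genes were called.

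The genes whose levels ran most like CYP707A2 and ABA1 were found by Pearson's r of log2(CPM + 1) over 12 libraries, as a description, since libraries share size, stage and depth. For CYP707A2 these were RHA1B (0.932), FD3 (0.923) and UP6 (0.919) among 8234 genes in dry seeds, and AT5G03470 (0.981), PP2-A11 (0.979) and AFP2 (0.977) among 17652 genes in single seeds. For ABA1 they were CIPK12 (0.893), AT4G28025 (0.881) and SNL6 (0.859) in dry seeds, and AT5G45690, AT1G08170 and AT5G22470 (0.996 each) in single seeds.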

How the data were processed

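Dry-seed libraries (12) and single-seed libraries (12, from 384 seeds) were 3′ RNA-seq of Col-0 seeds. The deposited values are counts per gene that the authors made with STAR 2.7.8a on TAIR10, and the submitters' processing notes also name Seurat and DESeq2. Whether molecular identifiers were collapsed in these tables is not given in the sources used here. In single seeds 9.76% of counts fell on no gene and 0.256% on ambiguous features, and both were left out.

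Counts of the 32 seeds of a library were summed. Fits used edgeR 4.0.16 (R 4.3.3, limma 3.58.1) with TMM scaling, quasi-likelihood tests and Benjamini-Hochberg adjustment at 0.05. The usual filter for dry seeds was filterByExpr. For single seeds it was a mean of at least 1 count a seed and a correlation with intergenic reads of at most 0.3. These limits follow the study's methods, but the study correlated read numbers. Here a gene's share of a seed's counts was correlated with the intergenic share, since read numbers follow depth. Wider fits took genes with at least 1 count (dry) or a mean of at least 0.1 count a seed and no intergenic filter (single). A gene in the usual fit is reported from it, and any other from the wider fit. DESeq2 1.42.0, other scalings and filters, thinning, a replicate block and leaving out each library were alternatives. The fits were tested on simulated data.

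In dry seeds the pool number pairs libraries by design, since 1 seed pool was sorted by size. Residuals of libraries of 1 pool had a mean correlation of 0.0161, against -0.00526 for other pairs. Named genes are the 10 genes, up to 5 called genes of the 5 pathway lists in a comparison by size of change, NCED2, NCED3, ABA3 and ABA4, and the 3 genes most like CYP707A2 and ABA1 (the gene of the 10 with the highest dry CPM). The stage values of PSY, AAO1, ABI4, ATAF1 and UGT71B7 and the dry values of BCH1, ATAF1, NLP8 and AAO2 were added after their values were seen. Members and lists were chosen with earlier results of these data known. RefSeq TAIR10.1 matched 36899 of 37184 and 37051 of 37336 identifiers. Totals of counts, and thus precision, are given with the levels.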

Additional observations from a re-analysis of the deposited data

Results flagged for a closer look

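Over 27 groups of 4 dry libraries, 4 had a library far from the other 3 by Dixon's test, which chance gives in about 1 in 20 groups. CYP707A2 had its lowest large library at 37.6 CPM (pool 3). CYP707A3 had its highest small library at 6.10 CPM (pool 1), from 4 counts, with the other small libraries at 0. NCED6 had its highest large library at 7.13 CPM (pool 2), from 17 counts, against 1 count in each other large library. ABA2 had its highest medium library at 3.73 CPM (pool 4), from 4 counts.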

How the results depend on the processing

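Most values kept their direction and side of the threshold: for single genes, 426 comparisons under other settings did and 20 changed sign, and with 1 library left out 487 did and 44 changed sign. Of those that changed sign only AAO3 between stages in large seeds, which turned on library totals, had been called. A call was lost in 9 comparisons under other settings and gained in 1, and with 1 library left out it was lost in 3 and gained in 6. Thinning lost CYP707A2 for dry small against medium (-0.77) and, between stages, ABA1 (-0.45) and AAO3 (-0.89) in small and NCED6 (-1.27) and AAO3 (-1.20) in large seeds. Library totals lost AAO3 in small (-0.14) and NCED6 in large seeds (-1.29), and AAO3 was lost in large seeds with no intergenic filter (-0.53) and in the wider fit (-0.50). Library-total scaling and the combined wider filters were chosen after seeing the data. The Wilcoxon test over seeds was not run, because seeds of a library share its preparation, so libraries were taken as the samples. Causes were not tested.

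Counts of called genes moved. Thinning gave 667 genes for dry small against large, 162 for small against medium and 5 for medium against large, and library totals gave 2756 and 723 for the first pair of these. A minimum of 1 count gave 31 for medium against large. The seed pool block gave 24 there and changed no other call. DESeq2 and thinning in the wider set each called 0 of the 10 genes between small and medium. In single seeds at 3d, DESeq2 called 35 genes between sizes, no intergenic filter 58, thinning 10 and the wider fit 55. At 7d+24h library totals gave 54, no intergenic filter 396, thinning 60 and the wider fit 346. Between stages, no intergenic filter gave 7924 in small and 8483 in large seeds, thinning 2380 and 2830, and the wider fit 9986 and 10919. The interaction had 14 genes on library totals, 17 with a mean of 0.1 count, 66 with no intergenic filter, 9 with thinning and 50 in the wider fit.

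By their labels, single-seed libraries of the same number share only that number. Their residuals had a mean correlation of 0.0586 (-0.131 to 0.293), against -0.0293 for other pairs (-0.268 to 0.213). Pairs of number 1 libraries all had positive values, from 0.065 to 0.293. The replicate block on library numbers gave 217 genes between sizes at 7d+24h in place of 93, and called CYP707A3 between stages in small seeds (-0.88).

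Signs turned as follows, on the log2 scale. Dry small against large: thinning gave NCED9 -0.24, ABA1 -0.055 and ABA2 0.069, library totals NCED9 -0.23 and ABA1 -0.32, and upper-quartile factors ABA1 -0.016. Small against medium: library totals gave CYP707A3 -0.030 and AAO3 -0.15, the seed pool block CYP707A3 -0.087, and thinning AAO3 -0.070. Medium against large: library totals gave ABA1 -0.012 and thinning ABA2 0.12. Single seeds: thinning gave CYP707A1 0.45, CYP707A2 0.24 and ABA2 2.99 between sizes at 3d, ABA2 2.48 between stages in large seeds and AAO3 0.31 in the interaction. Library totals gave CYP707A3 0.019, ABA2 0.065 and AAO3 0.088 between stages in large seeds.

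Leaving out 1 library gave 750 to 1214 genes (1 to 2 of the 10) for dry small against large, 125 to 400 (0 to 1) for small against medium and 5 to 26 for medium against large. It gave 7 to 50 between sizes at 3d, 9 to 196 (0 to 1 of the 10) at 7d+24h and 8 to 22 in the interaction. Ranges that crossed 0 were, for dry small against large, CYP707A3 -2.47 to 2.06, NCED9 -0.053 to 0.42 and ABA1 -0.16 to 0.19. For small against medium they were CYP707A1 -0.81 to 0.14, CYP707A3 -3.58 to 0.89, NCED9 -0.068 to 0.73, ABA1 -0.28 to 0.059, ABA2 -0.70 to 0.27 and AAO3 -0.084 to 0.26. For medium against large they were NCED5 -0.78 to 0.096, NCED6 -0.34 to 1.94, NCED9 -0.58 to 0.23 and ABA2 -0.85 to 0.15. At 3d they were CYP707A1 -0.54 to 0.16, CYP707A2 -0.16 to 0.0099, CYP707A3 -0.20 to 0.55 and NCED5 -1.44 to 0.72, and at 7d+24h CYP707A3 -0.41 to 0.0094, NCED5 -1.31 to 0.20 and AAO3 -0.17 to 0.35. Between stages in small seeds NCED5 ran -2.06 to 0.67. In the interaction they were CYP707A1 -0.54 to 0.21, CYP707A3 -0.70 to 0.0034, NCED5 -1.47 to 1.25, ABA2 -0.54 to 0.17 and AAO3 -0.47 to 0.047.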
